A study of Junco hyemalis with 13 samples.

Results

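Hypothalamic expression of 6 genes of feeding and energy balance was described in dark-eyed juncos, small North American songbirds, from a resident and a migrant population: neuropeptide Y (NPY, XP_012427040.1), the leptin receptor (LEPR, NP_001266174.1), the glucagon-like peptide 1 receptor (GLP1R, XP_002186819.1), the pyroglutamylated RFamide peptide receptor (QRFPR, NP_001243137.1), the cannabinoid receptor CNR1 (NP_001041727.1) and the adiponectin receptor ADIPOR2 (XP_002197931.1). They are 6 of the 15363 elements counted, an element being a junco region named after its closest zebra finch protein, and they were chosen by symbol in a shortened copy of the study's supplementary table of all elements. That copy gives first the 175 elements with the smallest p in the study's comparison of the same birds, and otherwise runs in order of identifier. NPY and ADIPOR2 are in it because of a small p. Their difference between the populations was therefore used to choose them, and it is given as a description without a test. LEPR, GLP1R, QRFPR and CNR1 stand in the part ordered by identifier and were tested. They too were chosen with earlier results of these data known, so their unadjusted p-values are not those of a blind choice. Ranked by p in the fit described here, ADIPOR2 stood at 47 and NPY at 173, which follows from how they were chosen and is not a result. CNR1, at 211, was the nearest of the other 4 members.

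The series holds 1 hypothalamus library from each of 13 free-living males caught in March 2017 at 1 site in Virginia where the populations share the winter. The 7 residents (Junco hyemalis carolinensis) stay there to breed, and the 6 migrants (Junco hyemalis hyemalis) leave for northern breeding grounds. No bird was treated or carried a modified genotype, birds were assigned to populations by bill colour, plumage and wing length, and their ages are not given in the sources used here. The tissue was pooled per bird from punches above the optic chiasm, running from the tractus septomesencephalicus to the infundibular complex, so each value averages over many nuclei and cell types. A lower value in such tissue can mean fewer cells of a type or less RNA per cell, and these cannot be told apart. The comparison asks whether appetite and energy transcripts differ between a population that breeds at the site and a population that leaves it to breed. Subspecies, breeding origin and seasonal state go together in these birds and cannot be told apart. For these birds the paper reports higher plasma testosterone in residents. It also reports that neither body mass nor fat score differed significantly between the populations.

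Neuropeptide Y is made by neurons of the infundibular nucleus, the avian counterpart of the arcuate nucleus, and is among the strongest signals that promote feeding in birds and mammals. In mammals the same neurons are restrained by leptin, a hormone of adipose tissue, acting through its receptor, while glucagon-like peptide 1 lowers food intake and adiponectin signals fuel status. Endocannabinoids act through CNR1, which sits mostly on nerve endings and reduces transmitter release, and the QRFP peptides raise food intake in rodents.

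Total counts per library ran from 4308064 to 5469786 in residents and from 4319503 to 5826833 in migrants. Values below are CPM, counts scaled to a common library size with TMM factors, and they are compared between birds but not between genes, since no transcript lengths were used. Fold changes are resident minus migrant on the log2 scale, from the quasi-likelihood fit of edgeR to 9938 elements, those counted 5 times or more in 6 or more birds. All 6 genes passed this filter. The peptides CRH and NPVF, which mark hypothalamic neurons, were counted in every library, and NPVF ran from 208 to 877 CPM in residents and from 235 to 464 CPM in migrants. Migrant replicate 1 and resident replicate 4 stood apart on the first principal component. Their scores were 49.18 and 42.75, against -21.5 to 2.32 in the other 11 birds. Fold changes of the 6 members without both libraries are given in the last section. The summed haemoglobin HBAA and HBAD level was 3496 to 10380 CPM in residents (median 5475) and 4782 to 12700 CPM in migrants (median 8483), with log2 fold changes of -0.59 ± 0.26 (SE) for HBAA and -0.53 ± 0.24 for HBAD. The part of blood in the differences below was not tested.

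None of the 6 genes passed an adjusted p of 0.05, by edgeR's quasi-likelihood test or by DESeq2, which for NPY and ADIPOR2 is given as a description only, and in all 6 the values of residents and migrants overlapped. Over all elements, edgeR called 0% of 9938 at an adjusted p of 0.05, with a smallest adjusted p of 0.551. At an unadjusted p under 0.05 it called 4.45%, 229 elements higher and 213 lower in residents. DESeq2 called 3 elements (0.0302%) and limma-voom called 0. Populations did not overlap for 13 of the 9938 elements (0.131%). The p-values set the difference between the populations against the spread between these birds. Expression was estimated higher in residents for ADIPOR2, CNR1, QRFPR and GLP1R, and lower in residents for NPY and LEPR. The LEPR estimate changed sign, to 0.36, without migrant replicate 6, so no direction is given for that gene.

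NPY, the feeding peptide of the group, was the most deeply counted of the 6, with 1541 to 5039 counts per library. Resident replicates 1 to 7 had 616.1, 297.9, 512.1, 448.0, 385.4, 644.1 and 537.9 CPM. Migrant replicates 1 to 6 had 1183, 529.3, 449.0, 548.1, 749.4 and 824.0 CPM. All 7 residents lay below the migrant median, and 3 of the 6 migrants (replicates 1, 5 and 6) lay above every resident. Resident replicates 2, 4 and 5 in turn lay below every migrant, although replicate 4 did so by about 1 CPM.

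Average NPY expression was 491.7 ± 123.8 CPM in residents (SD, n = 7) and 713.8 ± 270.2 CPM in migrants (SD, n = 6). The log2 fold change was -0.54 ± 0.21 (SE), which is 0.689 times the migrant level. Its size rested in part on migrant replicate 1, the bird with the highest NPY of all 13. Without that bird the estimate was -0.34, and it was -0.31 when resident replicate 4, the other library that stood apart, was left out too. In migrant replicate 1 the summed levels of neuronal (7094 CPM), oligodendrocyte (1926 CPM), microglial (889.4 CPM) and meningeal markers (78.4 CPM) were the highest of the 6 migrants, and that of vessel markers the lowest (102.8 CPM). Across the migrants these sums ran from 4380 CPM for 6 of 6 neuronal markers measured, 953.2 CPM for 3 of 3 oligodendrocyte markers, 390.0 CPM for 3 of 3 microglial markers and 38.8 CPM for both meningeal markers. In residents the same sums ran from 4277 to 7900, 888.8 to 3121, 346.8 to 771.4 and 44.5 to 72.2 CPM. The sums weight each marker by its abundance, and UCHL1, STMN2 and VSNL1 made up most of the neuronal sum. The list called microglial holds CSF1R, CD74 and IL34. CD74 made the largest part of its sum, at 200 to 641 CPM in residents and 238 to 747 CPM in migrants. IL34 encodes a ligand of CSF1R and is not specific to microglia, at 32.1 to 82.9 CPM in residents and 35.0 to 57.0 CPM in migrants. No marker was at 0 in any library, and the part of tissue makeup in the NPY difference was not tested.

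**Figure D1:**
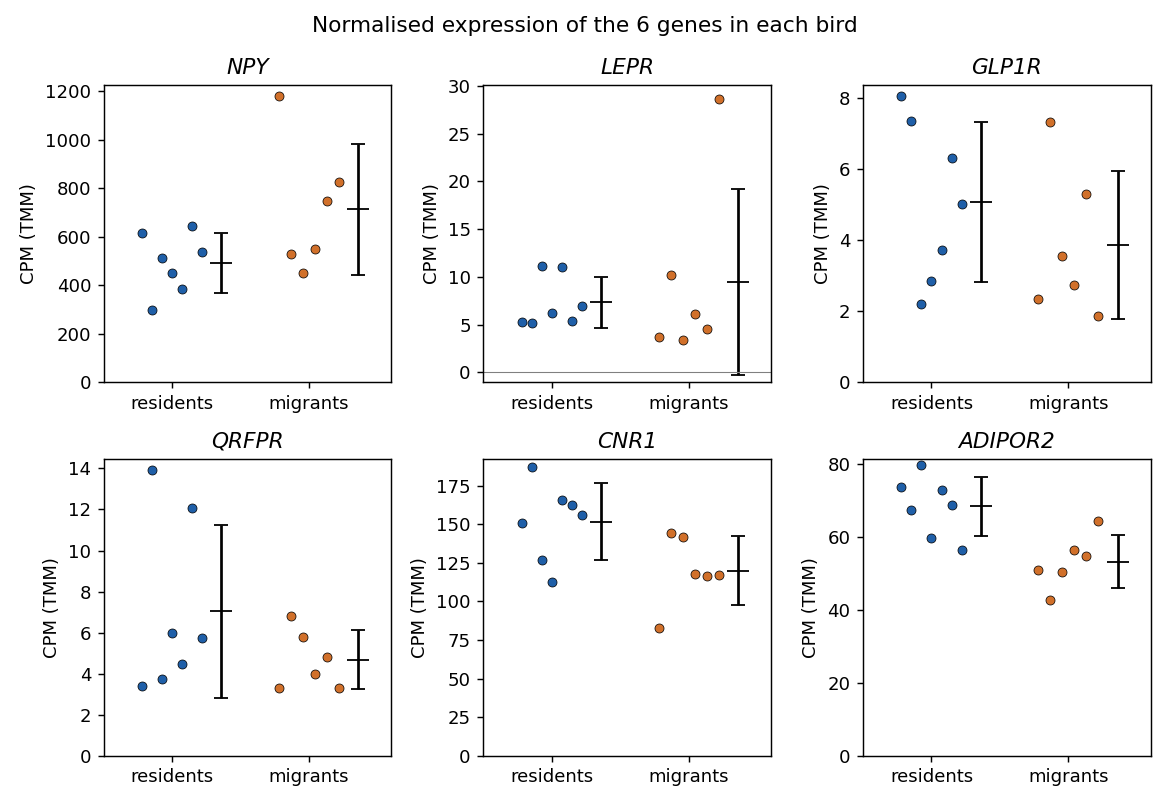
Normalised expression (CPM with TMM factors, linear axis) of NPY, LEPR, GLP1R, QRFPR, CNR1 and ADIPOR2 in 7 residents (left, blue) and 6 migrants (right, orange). Each point is 1 bird in replicate order and the bar is the mean ± SD. In all 6 panels the populations overlap, and the migrant at 28.7 CPM for LEPR and the migrant at 1183 CPM for NPY stand above the rest.

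CNR1, the main cannabinoid receptor of the brain, was the best counted receptor, with 352 to 969 counts per library. Resident replicates 1 to 7 had 150.8, 187.3, 126.9, 112.6, 165.8, 162.5 and 156.4 CPM. Migrant replicates 1 to 6 had 82.6, 144.5, 141.6, 118.1, 116.6 and 116.9 CPM. Thus 5 of the 7 residents exceeded every migrant, while resident replicates 3 and 4 fell within the migrant range. The lowest value of all 13 birds was that of migrant replicate 1, the bird with the highest NPY.

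CNR1 averaged 151.8 ± 25.0 CPM in residents (SD, n = 7) and 120.0 ± 22.3 CPM in migrants (SD, n = 6). The log2 fold change was 0.34 ± 0.14 (SE), a 1.26-fold difference with a 95% interval of 1.03 to 1.55. The edgeR quasi-likelihood p was 0.0266, and the adjusted p over all elements was 0.996 (0.961 by DESeq2). An exact two-sided permutation test over the 1716 divisions of the birds gave p = 0.0385 for this single gene. CNR1 was chosen by name with earlier results of these data known, and neither unadjusted p makes allowance for that choice. The difference did not pass the adjusted threshold. Its unadjusted edgeR p was 0.0654 without migrant replicate 1, with a log2 fold change of 0.25, and 0.0616 without resident replicate 2, with 0.28. Without both libraries that stood apart the log2 fold change was 0.31 and the unadjusted edgeR p 0.0129, with an adjusted p of 0.709, and over 23 alternatives the adjusted p ran from 0.436 to 1.0.

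ADIPOR2, a receptor for adiponectin, a hormone of adipose tissue, had 217 to 393 counts per library. Resident replicates 1 to 7 had 73.7, 67.5, 79.7, 59.8, 73.0, 68.9 and 56.4 CPM. Migrant replicates 1 to 6 had 50.9, 42.7, 50.6, 56.4, 54.8 and 64.3 CPM. Of the residents, 5 of 7 lay above every migrant and all 7 above the migrant median, while migrant replicates 4 and 6 lay above the lowest resident. The means were 68.4 ± 8.11 CPM in residents (SD, n = 7) and 53.3 ± 7.22 CPM in migrants (SD, n = 6). The log2 fold change was 0.36 ± 0.12 (SE), or 1.28-fold, and it stayed between 0.30 and 0.42 when each bird was left out in turn. Since ADIPOR2 was chosen on this contrast in the same birds, that range is a description only.

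LEPR, the receptor through which leptin acts on hypothalamic neurons, was counted 16 to 139 times per library. Resident replicates 1 to 7 had 5.25, 5.22, 11.2, 6.21, 11.01, 5.39 and 6.99 CPM. Migrant replicates 1 to 6 had 3.76, 10.2, 3.37, 6.11, 4.59 and 28.7 CPM. A single migrant, replicate 6, held more than every other bird, and 3 migrants (replicates 1, 3 and 5) lay below every resident. The means and the medians therefore pointed in opposite directions. The mean was 7.32 ± 2.66 CPM in residents (SD, n = 7) and 9.44 ± 9.74 CPM in migrants (SD, n = 6), and the median was 6.21 CPM in residents and 5.35 CPM in migrants.

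The LEPR log2 fold change was -0.37 ± 0.43 (SE), with a 95% interval from 0.413-fold to 1.44-fold, an edgeR quasi-likelihood p of 0.398 and an adjusted p of 0.996. Without migrant replicate 6 the sign changed, and the estimate was 0.36. On the scale of log2(CPM + 1), which gives a single high bird less weight, the difference of means was -0.01 (exact permutation p = 0.983, two-sided). No direction can be given for LEPR in these birds. Migrant replicate 6 had marker sums within the range of the other 5 migrants for neurons (4741 CPM), oligodendrocytes (1047 CPM), microglia (663.6 CPM), blood (7960 CPM), vessels (135.3 CPM) and meninges (66.6 CPM). Its sum of CRH and NPVF, 477.0 CPM, was the highest of the migrants, and that sum is mostly NPVF.

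GLP1R, a receptor of the satiety peptide glucagon-like peptide 1, was the most sparsely counted, with 9 to 44 counts per library. Resident replicates 1 to 7 had 8.06, 7.35, 2.20, 2.85, 3.73, 6.32 and 5.02 CPM. Migrant replicates 1 to 6 had 2.35, 7.33, 3.56, 2.74, 5.31 and 1.86 CPM. Both populations covered nearly the same range, and 5 of 7 residents lay above the migrant median. The means were 5.07 ± 2.26 CPM in residents (SD, n = 7) and 3.86 ± 2.09 CPM in migrants (SD, n = 6). The log2 fold change of 0.39 ± 0.36 (SE) had a 95% interval from 0.773-fold to 2.23-fold, an edgeR p of 0.295 and an adjusted p of 0.996 (exact permutation p = 0.315, two-sided). The estimate was 0.69 without migrant replicate 2, and 0.24 and 0.25 without migrant replicate 6 and resident replicate 1.

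QRFPR, the receptor of the RFamide peptide QRFP, had 14 to 72 counts per library. Resident replicates 1 to 7 had 3.38, 13.9, 3.73, 5.96, 4.48, 12.1 and 5.73 CPM. Migrant replicates 1 to 6 had 3.29, 6.83, 5.80, 4.001, 4.83 and 3.30 CPM. Only resident replicates 2 and 6 exceeded the migrant range, and the other 5 residents lay inside it. The means were 7.04 ± 4.21 CPM in residents (SD, n = 7) and 4.67 ± 1.43 CPM in migrants (SD, n = 6).

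The QRFPR log2 fold change of 0.58 ± 0.35 (SE) had a 95% interval from 0.904-fold to 2.48-fold, an edgeR p of 0.111 and an adjusted p of 0.996 (exact permutation p = 0.263, two-sided). It was 0.32 without resident replicate 2 and 0.39 without resident replicate 6. These residents also had the highest summed oligodendrocyte markers of their population (1950 CPM in replicate 2 and 3121 CPM in replicate 6) and the highest sums of CRH and NPVF (903.7 and 598.8 CPM). That peptide sum was mostly NPVF, since CRH had only 7.13 to 26.7 CPM in residents. NPVF itself had a log2 fold change of 0.50 ± 0.25 (SE). Migrant replicate 1, with a similar oligodendrocyte sum (1926 CPM) and the second highest neuronal sum (7094 CPM), had the lowest QRFPR of all 13 birds. In the other residents the oligodendrocyte sum ran from 888.8 to 1229 CPM and the peptide sum from 214.7 to 574.5 CPM. Resident replicate 2 held the highest neuronal sum of all 13 birds as well, 7900 CPM. The part of tissue makeup in the QRFPR values was not tested.

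**Figure D2:**
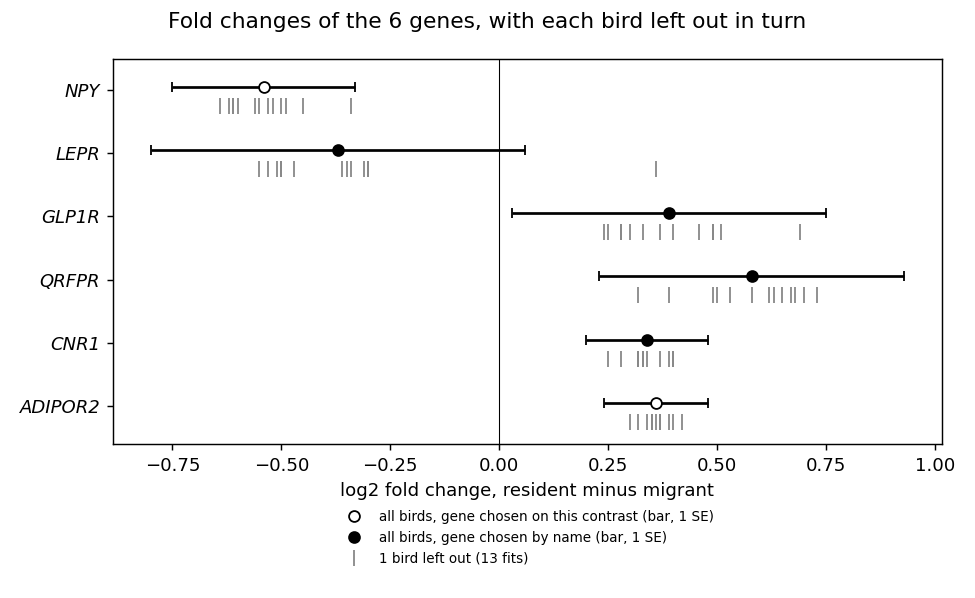
Log2 fold changes (resident minus migrant) of the 6 genes from edgeR. Circles are the fit on all 13 birds with a bar of 1 SE, open for NPY and ADIPOR2, which were chosen on this contrast, and grey ticks are the 13 fits that each leave out 1 bird. The ticks of LEPR run from -0.55 to 0.36 and cross 0, while those of CNR1 run from 0.25 to 0.40 and those of ADIPOR2 from 0.30 to 0.42.

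The 6 genes differed in how much birds of a population varied. For ADIPOR2 the coefficient of variation of CPM was 11.9% in residents and 13.5% in migrants, against a counting error of 5.47% and 6.27%. For CNR1 it was 16.5% in residents and 18.6% in migrants. Elements with a mean count of 200 to 1000, the range of both genes, had a median of 16.7% in either population, close to the values of CNR1. ADIPOR2 was chosen by a p that a small spread favours, so nothing is read from its lower values. NPY varied by 25.2% in residents and 37.9% in migrants, above the medians of 18.5% and 17.0% for elements with a mean count of 1500 to 5000.

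For the 3 sparse receptors the counting error itself was 17.4% to 26.1%. QRFPR varied by 59.9% in residents and 30.6% in migrants. LEPR varied by 36.3% in residents and 103% in migrants, and GLP1R by 44.6% in residents and 54.2% in migrants. Elements with a mean count of 15 to 60 had medians of 32.1% in residents and 32.5% in migrants. The widest spreads, of LEPR in migrants and of QRFPR in residents, each include the high birds named above.

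**Figure D3:**
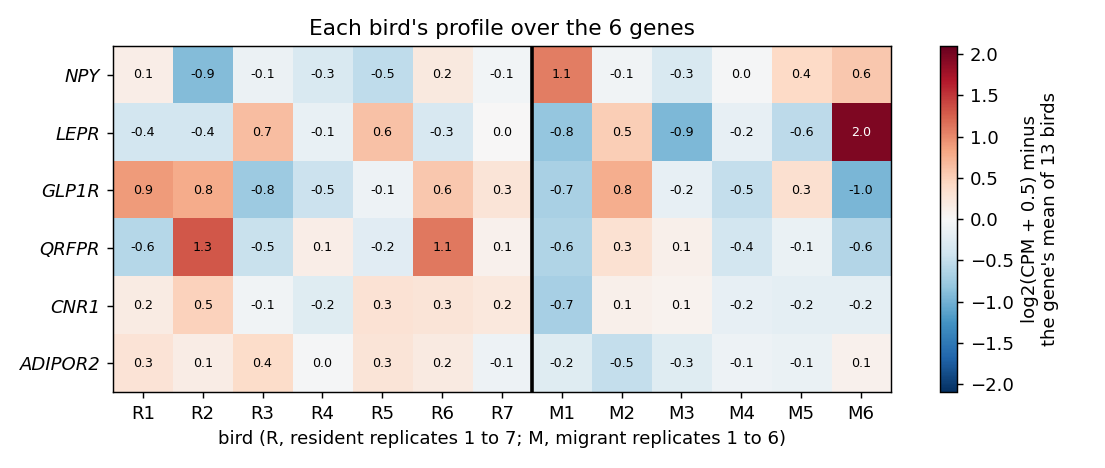
Expression of each of the 6 genes in each bird, as log2(CPM + 0.5) minus the gene's mean over the 13 birds (red above, blue below, value printed in each cell). Residents R1 to R7 are left of the black line and migrants M1 to M6 right of it. The strongest departures are LEPR in migrant replicate 6, QRFPR in resident replicates 2 and 6, and NPY in migrant replicate 1.

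In the bird profiles, resident replicate 2 had the highest QRFPR and CNR1 and the second highest GLP1R of all 13 birds, and migrant replicate 2 was the highest migrant for these 3 receptors. The highest NPY, LEPR and ADIPOR2 were in other birds, migrant replicate 1, migrant replicate 6 and resident replicate 3. Across the 15 pairs of genes in each population, 30 relations were computed on log2(CPM + 0.5) with exact permutation of the pairings. None passed an adjusted p of 0.05 (smallest 0.208), and 4 had an unadjusted p under 0.05. In the migrants NPY ran against CNR1 (r = -0.91, exact p = 0.00694, adjusted p = 0.208; rho = -0.89, exact p = 0.0333, adjusted p = 0.25; n = 6). Without the 2 birds farthest from the NPY median r was weaker, at -0.66. They include migrant replicate 1, with the highest NPY and the lowest CNR1 of all 13 birds. Leaving out such birds also narrows the NPY range, and each such r, here and below, rests on few birds. In the 7 residents the same pair had r = -0.32 (exact p = 0.489, adjusted p = 0.813) and rho = -0.32 (exact p = 0.498, adjusted p = 0.83). Without the 2 residents farthest from the NPY median r was 0.89, so its sign reversed and no direction can be given for residents.

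Within migrants the sparse receptors GLP1R and QRFPR varied together, with r = 0.89 (exact p = 0.0278, adjusted p = 0.278) and rho = 0.89 (exact p = 0.0333, adjusted p = 0.25). Leaving out the 2 birds farthest from the GLP1R median gave r = 0.93. In residents this pair had r = 0.43 (exact p = 0.322, adjusted p = 0.769) and rho = 0.14 (exact p = 0.783, adjusted p = 0.927). QRFPR and CNR1 in migrants had r = 0.81 (exact p = 0.025, adjusted p = 0.278), rho = 0.83 (exact p = 0.0583, adjusted p = 0.35) and r = 0.76 without the farthest birds. LEPR and GLP1R in residents had r = -0.77 (exact p = 0.0482, adjusted p = 0.297), rho = -0.86 (exact p = 0.0238, adjusted p = 0.25) and r = -0.67 without the farthest birds. Whether a relation differed between the populations was not tested.

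**Figure D4:**
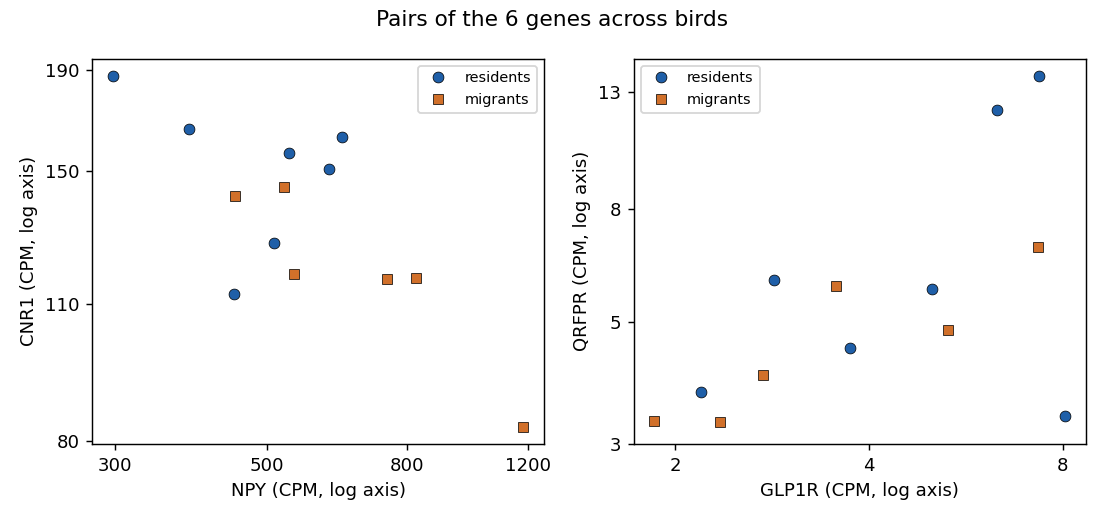
CPM of NPY against CNR1 (left) and of GLP1R against QRFPR (right) on log axes, with residents as circles and migrants as squares. The pairs shown have the strongest relations within migrants (r = -0.91 and r = 0.89), and neither passed adjustment over the 30 relations.

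The elements whose pattern was most like each gene were sought among 982 of the 9938 tested elements. These have a gene symbol in the copy, and LOC symbols and symbols with a space were left out. The 3 highest Pearson correlations over 13 birds after centring each population were taken. The search included elements that are in the copy because of a small p in this contrast, among them SAYSD1, LPIN3, RBM43, APP and FAIM2. Closer elements outside these 982 may have been missed. These values describe shared variation of libraries, including that of the 2 libraries standing apart, and carry no p. CNR1 had the closest neighbours, ATP9A, a phospholipid-transporting ATPase (r = 0.96), PDZD8 (r = 0.91) and FAIM2, an inhibitor of apoptosis found in neurons (r = 0.90). Without both libraries apart these were 0.92, 0.75 and 0.88. QRFPR was nearest to OLFM3 (r = 0.85), the amyloid precursor gene APP (r = 0.85) and SYN2, a synaptic vesicle protein (r = 0.78), and for these 3 genes r was 0.89, 0.87 and 0.80 without those libraries.

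NPY was most like SAYSD1 (r = 0.85), the phosphatidate phosphatase LPIN3 (r = 0.75) and S100B, a calcium-binding protein of glia (r = 0.75). Without both libraries apart, the r with S100B was 0.62. GLP1R was most like SLC9A3R2, a scaffold protein of membrane transporters (r = 0.81), YWHAG (r = 0.74) and the SUMO ligase PIAS1 (r = 0.73). LEPR was nearest to RBM43, TMEM170B and ZNF365, with r between 0.69 and 0.70. ADIPOR2 was nearest to C18H17orf62 (r = 0.77), UACA (r = 0.72) and the haemoglobin gene HBE1 (r = 0.70), the last at a mean of only 1.54 CPM. For ADIPOR2 and C18H17orf62 the r without both libraries apart was 0.92.

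Other genes of the pathway were read from 4 lists of named elements, 37 genes in all, of which 31 passed the filter. These lists draw only on the part of the copy ordered by identifier, which spans 1069 of the 11454 elements with a count. A further list of 18 ligands and receptors, among them AGRP, POMC and the NPY receptors, could not be read. None of the 18 is named in that part, so the values below do not cover them. By edgeR 0 of the 31 passed an adjusted p of 0.05 in either direction, and 0 had an unadjusted p under 0.05, beside the 4.45% of all elements. The estimates were higher in residents for 19 genes and lower for 12, with a median log2 fold change of 0.04 beside 0.0021 over all elements tested.

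Among 9 appetite peptides and receptors, 6 were tested, with a median log2 fold change of 0.06. The lowest p of the 4 lists was that of NPVF, the precursor of gonadotropin-inhibitory hormone, at 507 ± 212 CPM in residents (SD, n = 7) and 357 ± 87.6 CPM in migrants (SD, n = 6). Its log2 fold change was 0.50 ± 0.25 (SE), with an edgeR p of 0.0558 and an adjusted p of 0.996. CRH, which drives the stress axis and lowers food intake, had 14.5 ± 7.19 CPM in residents and 10.4 ± 3.94 CPM in migrants, with a log2 fold change of 0.46 ± 0.31 and an adjusted p of 0.996. The satiety peptide CCK averaged 136 ± 93.0 CPM in residents and 138 ± 59.3 CPM in migrants (log2 fold change -0.02 ± 0.38). For neurotensin (NTS) the averages were 320 ± 93.2 CPM in residents and 317 ± 57.9 CPM in migrants (log2 fold change 0.01 ± 0.18).

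All 9 genes of leptin and insulin signalling were tested, and their median log2 fold change was -0.01. The suppressor of cytokine signalling SOCS2 had the largest difference, at 6.09 ± 2.29 CPM in residents and 7.62 ± 1.10 CPM in migrants (log2 fold change -0.32 ± 0.25, adjusted p = 0.996 by edgeR). LAMTOR2, a part of the complex that brings mTORC1 to lysosomes, had a log2 fold change of -0.06 ± 0.18. The mTORC1 activator RHEB had -0.11 ± 0.16 and the adaptor GRB2 0.01 ± 0.09.

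Of 16 genes of lipid and fuel handling 14 were tested, with a median log2 fold change of 0.08 and a range from -0.46 to 0.32. PPARG, a regulator of fat storage, marked the low end at 1.81 ± 1.54 CPM in residents and 2.43 ± 1.64 CPM in migrants (log2 fold change -0.46 ± 0.51). At the high end stood the fatty acid transporter CD36 at 1.30 ± 0.903 CPM in residents and 1.01 ± 0.365 CPM in migrants (log2 fold change 0.32 ± 0.49). Both genes had at most 21 counts in a library. Brain creatine kinase CKB (0.05 ± 0.12), the mitochondrial pyruvate carrier MPC1 (-0.12 ± 0.16) and malic enzyme ME1 (0.19 ± 0.14), the 3 with the highest mean CPM (not scaled by length), had smaller estimates.

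Of 3 partners of inhibitory G protein-coupled receptors, the class of CNR1, 2 were tested. The potassium channel KCNJ3 had 45.4 ± 7.77 CPM in residents and 41.0 ± 5.94 CPM in migrants (log2 fold change 0.15 ± 0.13). The arrestin ARRB1 had 84.7 ± 12.2 CPM in residents and 74.4 ± 8.02 CPM in migrants (log2 fold change 0.19 ± 0.12, adjusted p = 0.996 by edgeR). RGS17, which quenches G protein signals, had 0 to 8 counts per library, averaged 0.755 ± 0.593 CPM in residents and 0.187 ± 0.218 CPM in migrants, and was too low to be tested.

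**Figure D5:**
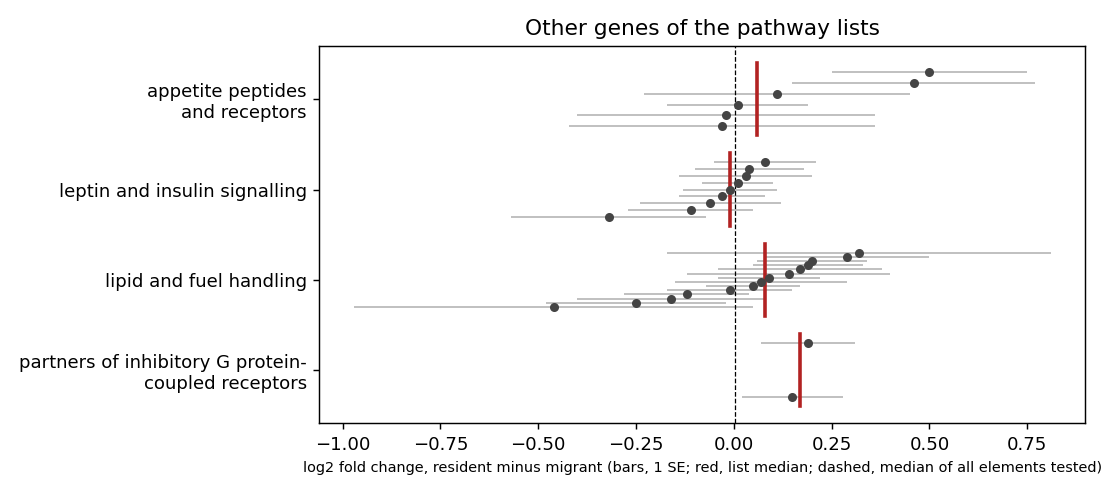
Log2 fold changes (resident minus migrant) of the 31 tested genes in the 4 pathway lists, with bars of 1 SE, a red line at each list's median and a dashed line at the median of all elements tested, 0.0021. List medians lie between -0.01 and 0.17, and 0 of the 31 genes passed the adjusted threshold.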

How the data were processed

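Hypothalamus RNA-seq of 7 resident and 6 migrant male juncos was analysed, 1 polyA library per bird made with a stranded kit from 200 ng of RNA with 12 cycles of PCR. What the authors deposited are whole-number counts of reads for each element, not normalized. Per the paper and the submitters' processing notes, reads were trimmed with Trimmomatic 0.33, aligned by STAR 2.5.3a to a draft assembly of the junco, and assigned to elements by featureCounts. The notes also name Subread 2.0.0 and GSNAP, and whether counting used strand is not stated there, so overlapping genes on opposite strands may share reads. Elements were named from the shortened copy of the study's supplementary table, by similarity to zebra finch proteins. Its other columns hold the authors' own comparison and were not used.

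Counts were analysed as deposited with edgeR 4.0.16 in R 4.3.3 (TMM factors, quasi-likelihood test, Benjamini-Hochberg adjustment over 9938 elements). Standard errors were obtained by dividing the absolute log2 estimate by the root of F. Single genes were tested by exact two-sided permutation of mean log2(CPM + 1), and relations by exact permutation of pairings on log2(CPM + 0.5), with numpy 2.4.6. Ranks and the adjustment over relations were computed with scipy 1.17.1. The members, lists and naming rule were chosen with earlier results of these data known. Named genes were the 6 members, the 3 with the highest mean CPM and the 2 with the largest fold change in each list, the 3 elements most like each member, and the markers. Gene lists use only elements named whatever their p. Alternatives were DESeq2 1.42.0, its size factors, limma-voom from limma 3.58.1 (plain and quality-weighted), the likelihood ratio test, filters on low counts, library number as a covariate, a replicate block and leaving out each bird. The fit without both libraries apart was chosen after seeing the data, as were the count ranges used as background for the spread between birds. The edgeR, DESeq2 and limma-voom fits were run on simulated counts, with true changes either absent or larger than the estimates of the members. The permutation tests, relations, similar elements, lists and marker sums were not simulated. No genome was used, so no coordinates or sequences are given. The counts range from 4308064 to 5826833 per library.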

Additional observations from a re-analysis of the deposited data

Results flagged for a closer look

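LEPR in the migrants had 1 bird far from the others. Replicate 6 had 28.7 CPM (139 counts), and the other 5 migrants had 3.37 to 10.2 CPM. The gap from this bird to its nearest neighbour was 0.731 of the migrants' whole range, above Dixon's 95% critical value for 6 birds. On the scale of log2(CPM + 1) the same share was 0.51, below that value. It was the only such case among the 12 combinations of gene and population looked at. Chance flags each single combination at a rate of about 1 in 20, which makes no allowance for looking at 12. The LEPR log2 fold change of -0.37 becomes 0.36 without migrant replicate 6. The cause of its high LEPR value was not tested.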

How the results depend on the processing

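No alternative brought any of the 6 genes past an adjusted p of 0.05. DESeq2 called 2 elements higher and 1 lower in residents, as did the likelihood ratio test, against 0 by the quasi-likelihood test, and the cause was not tested. The log2 fold changes of GLP1R, QRFPR and CNR1, which were chosen by name with earlier results known, kept their sign under all 23 alternatives. Those of NPY and ADIPOR2, which were chosen by this contrast in the same birds, did too. All 23 alternatives refit these same birds, so a stable sign is no support for a difference in any of these genes. With each bird left out in turn, NPY ran from -0.64 to -0.34, LEPR from -0.55 to 0.36, GLP1R from 0.24 to 0.69, QRFPR from 0.32 to 0.73, CNR1 from 0.25 to 0.40 and ADIPOR2 from 0.30 to 0.42. LEPR was -0.02 by limma-voom, -0.18 with quality weights and -0.64 with library number as a covariate. Library number is partly confounded with population, since numbers of 10 or more occur only in residents. With it the log2 fold changes were -0.46 ± 0.27 (SE) for NPY and 0.29 ± 0.14 for ADIPOR2. For CNR1 and QRFPR they were 0.44 ± 0.17 and 0.79 ± 0.43. QRFPR was 0.25 with quality weights, and GLP1R 0.70 with library number. Without both libraries that stood apart the log2 fold changes were -0.31 for NPY, -0.5 for LEPR and 0.38 for GLP1R. In the same fit they were 0.53 for QRFPR, 0.31 for CNR1 and 0.38 for ADIPOR2. The adjusted p of CNR1 ran from 0.436 to 1.0. Replicate numbers do not pair the birds: deviations of same-numbered birds correlated by -0.185 to 0.0625. With a replicate block, resident replicate 7 left out, the log2 fold changes were -0.53 for NPY, -0.01 for LEPR, 0.38 for GLP1R, 0.49 for QRFPR, 0.33 for CNR1 and 0.41 for ADIPOR2, and no call at an adjusted p of 0.05 changed, while the unadjusted p of CNR1 was 0.0528. Relations passing adjustment stayed at 0 with log2(CPM + 1). LEPR, GLP1R and QRFPR had as few as 16, 9 and 14 counts in a library. Their coefficients of variation between birds were 30.6% to 103%, and their counting errors 17.4% to 26.1%. The lowest, that of QRFPR in migrants, was 30.6% beside a counting error of 22.1%. The part of counting error in the spread of these genes was not tested.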
